A study of Mus musculus with 8 samples.

Results

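The genes of the MHC class II pathway and Ciita, the gene of their coactivator CIITA, were followed in naive B cells of mouse spleen by RNA sequencing. The members were the entries of the deposited table whose symbol is H2-Aa, H2-Ab1, H2-Eb1, Cd74, H2-DMa, H2-DMb1, H2-DMb2, H2-Oa, H2-Ob or Ciita. All 10 were found among 23302 entries, and all 10 were among the 13011 genes that were tested, which had a mean of at least 10 normalized counts over the 8 libraries. All mice were C57BL/6, and the study concerns pancreatic cancer. The groups were BEBi3-/- mice with a tumor, BEBi3-/- mice without one, WT mice with a tumor and WT mice without one, with 2 libraries each. BEBi3-/- (B-EBi3- in the sample labels) names a deficiency of Ebi3, which encodes a subunit shared by the cytokines IL-35 and IL-27. Not given in the sources used here are the way and the cells in which Ebi3 was deleted, the tumor model and the age of the mice. A tumor status labelled "WT" was read as no tumor, which the labels do not spell out. No label states that both libraries of a group are from separate mice, so a p-value here measures the spread between libraries, which may be technical.

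MHC class II molecules present peptides from endocytosed antigen to CD4+ T cells, and B cells carry them constitutively. The α and β chains assemble on the invariant chain, Cd74, which guides them to endosomes, where DM exchanges its remnant for antigen peptide and DO, made chiefly in B cells, restrains DM. Transcription of the family rests on RFX, CREB and NF-Y bound to the X and Y boxes of each promoter and on CIITA, which binds no DNA itself and is recruited by them. In C57BL/6 mice H2-Aa and H2-Ab1 encode I-A, the class II molecule of the strain, whereas the H2-Eb1 chain lacks its α partner.

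The promoters below are shown because the X and Y boxes are the elements through which CIITA reaches the family. The sequence AAC, then 23 to 26 bases of any kind, then TGATTGG was searched on both strands of the RefSeq promoters (GRCm38.p6, 250 bases before to 50 after each start). The spacing was chosen after these promoters had been read. It was found in 6 of the 7 members with a promoter in that table (H2-DMb1 is not printed) and in 151 of 32851 promoters, or 0.460%. H2-DMa was the exception. TGATTGG alone was in 7.82% of all promoters, and the shorter ATTGG, which lies inside it, was in 37.4%. Capitals mark AAC, which stands for the core of the X box, and TGATTGG, which stands for the Y box, each written 5′ to 3′ on the strand of its gene. A match describes letters and is no measured binding site.
H2-Aa, chr17:34287867-34287912, minus strand: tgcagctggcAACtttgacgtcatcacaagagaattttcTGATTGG
H2-Eb1, chr17:34305768-34305812, plus strand: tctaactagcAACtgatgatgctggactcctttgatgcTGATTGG
H2-DMb2, chr17:34145118-34145163, plus strand: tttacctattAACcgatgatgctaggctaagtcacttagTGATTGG
H2-Oa, chr17:34092295-34092340, plus strand: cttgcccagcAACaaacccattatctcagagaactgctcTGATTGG
H2-Ob, chr17:34238810-34238852, plus strand: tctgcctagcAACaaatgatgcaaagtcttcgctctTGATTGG
The Y box letters began 45 to 92 bases before the RefSeq start in the 6 members, which can differ from the GENCODE gene starts given next. The spacing was 23 bases in H2-Ob, 25 in H2-Eb1 and 26 in the other 4. H2-Oa and H2-Ob, whose products pair in DO, both had the match.

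The 8 H2 members lie on chromosome 17 of GRCm38 in GENCODE, from the start of H2-Oa at 34092340 to the end of H2-Eb1 at 34316674. Cd74 is on chromosome 18 and Ciita on chromosome 16, from 10480059 to 10528418. H2-DMb1 and H2-DMb2 are near-identical copies. Their transcripts matched at 94.6% of 1219 aligned bases, and 37.6% of the 31-base windows of H2-DMb1 occur in H2-DMb2. Reads can be split between these copies, so their separate values are uncertain. No other member shared more than 1.74% of its windows with any gene.

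Recovered depth was 21291892 to 28297319 reads a library. Ebi3 had 8.70 to 12.8 normalized counts in the BEBi3-/- libraries, 201 and 164 in WT tumor and 8.94 and 10.97 in WT nontumor, so it separates the genotypes only among the tumor libraries. The WT tumor libraries stood apart from the other 6. Xist was at 19758 and 26191 there against 5.59 to 18.3 elsewhere, Uty, Kdm5d and Eif2s3y of the Y chromosome had 0 reads only there, and their titles carry another prefix. Tumor status cannot be told apart from sex and title prefix in the WT tumor comparison, nor can genotype in the comparison of BEBi3-/- tumor with WT tumor. The BEBi3-/- tumor pair agreed nearly within counting noise, with a median chi-square of 0.567 a gene where noise alone gives 0.455 and the other same-group pairs gave 2.02 to 3.38. It was kept as 2 libraries, and calls that end when it counts as 1 are named. Fold changes followed transcript length across all genes, with a Spearman rho of 0.453 in the WT tumor comparison and 0.260 in the BEBi3-/- tumor comparison. It was -0.526 between genotypes with a tumor, -0.505 for the difference of the tumor differences and 0.284 between genotypes without a tumor. For the members called in a comparison, values with each library's trend on length and GC content removed are therefore given too.

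B cell markers were abundant. The 9 of 11 listed B cell genes in the table made up 1.02 and 1.02% of reads in BEBi3-/- tumor. They made up 0.897 and 0.838% in BEBi3-/- nontumor, 1.21 and 1.21% in WT tumor and 0.793 and 0.759% in WT nontumor. In WT tumor against WT nontumor 6 of the 9 were higher and 2 lower, where 39.6% and 40.1% of all genes were. The 7 T cell genes made up 0.00537 to 0.00715% and the 10 dendritic cell genes 0.00305 to 0.00801%. No marker of the lists was at 0 in every library. Macrophages and dendritic cells also carry class II, and their genes differed between groups. The 12 macrophage genes summed to 0.232 and 0.229% of reads in BEBi3-/- tumor, 0.344 and 0.433% in BEBi3-/- nontumor, 0.0495 and 0.0436% in WT tumor and 0.373 and 0.397% in WT nontumor. The dendritic cell genes summed to 0.00581 and 0.00582%, 0.00707 and 0.00683%, 0.00347 and 0.00305%, and 0.00725 and 0.00801% in the same groups. The 7 erythroid genes held 0.275 and 0.284% of reads in BEBi3-/- tumor, 1.0 and 1.5% in BEBi3-/- nontumor, 0.104 and 0.0725% in WT tumor and 0.620 and 0.561% in WT nontumor. All 7 were lower with a tumor in each genotype, where 18.5% of all genes were in BEBi3-/- mice and 40.1% in WT mice. With the BEBi3-/- tumor pair counted as 1, 6 were lower in BEBi3-/- tumor. The part of any of these cell types in the class II differences was not tested.

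The 10 members together took 3.15 and 3.16% of reads in BEBi3-/- tumor, 2.98 and 2.94% in BEBi3-/- nontumor, 2.54 and 2.31% in WT tumor and 3.03 and 3.03% in WT nontumor. Cd74 alone held 43.5 to 44.6% of the reads of the 10 members in every library. Per kilobase of transcript, WT nontumor libraries averaged 277746 ± 2396 normalized counts for Cd74, 172832 ± 933 for H2-Aa, 92060 ± 6301 for H2-Ab1 and 69797 ± 2470 for H2-Eb1 (SD, n = 2). The DM and DO chains followed at 4510 ± 146 for H2-DMb1 to 10588 ± 205 for H2-DMb2, and Ciita was lowest at 516 ± 69.5 on the same scale. The order among H2-DMb2, H2-Oa, H2-Ob and H2-DMa was close in WT nontumor, with means of 10588, 10360, 9328 and 9301 per kilobase. In WT tumor H2-Ob was the fifth of the 10, at 11950 ± 54.8 normalized counts per kilobase (n = 2). The plot of normalized counts by library shows all 10 members.

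**Figure D1:**
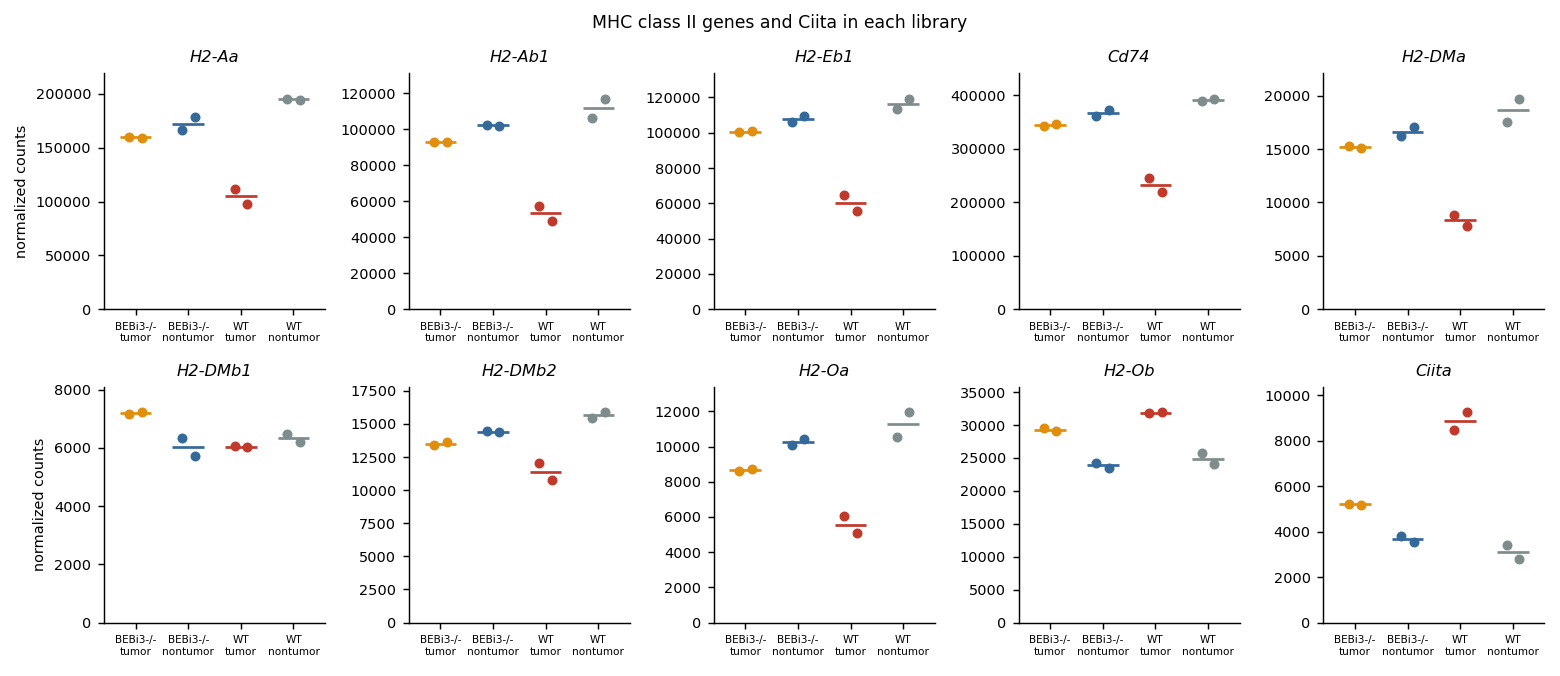
Normalized counts (vertical axes from 0) of the 10 members in each library; points are libraries, horizontal bars are the means of the 2 libraries of a group. In WT tumor the chains from H2-Aa to H2-DMa and H2-Oa lie below every other group, H2-Ob is among the high groups and Ciita is at 8452 and 9270 against 2804 to 5211 elsewhere.

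The tumor comparison within WT asked how class II RNA of naive B cells differs between mice with a tumor and mice without one. On the deposited scale H2-Aa, H2-Ab1, H2-Eb1, Cd74, H2-DMa, H2-DMb2 and H2-Oa were lower in WT tumor, but of these only H2-DMa was lower in every alternative, since quantile normalization reversed the first 3 and removal of the trend on length and GC content reversed H2-Aa, H2-Ab1, Cd74, H2-DMb2 and H2-Oa. Ciita and H2-Ob were higher in WT tumor in every alternative, although with the title number as a replicate block H2-Ob did not pass (limma adjusted p = 0.0750). Tests were made with limma on log2(normalized count + 1) over all 13011 genes, two-sided, with Benjamini-Hochberg adjustment and a threshold of 0.05. Of the 10 members 7 were lower, 2 were higher and 1 did not pass. Among all tested genes 79.8% were called, 40.1% lower and 39.6% higher, so a call by itself was common in this comparison. The median log2 difference was -0.83 over the members and 0.0099 over all tested genes. All 10 members had groups that did not overlap, as did 91.4% of all genes.

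The peptide-binding chains had similar falls. H2-Aa, the α chain of I-A, had 111916 and 97658 normalized counts in WT tumor, against 195699 and 194211 in WT nontumor. H2-Ab1, its β chain, had 57335 and 49193 in WT tumor, against 106177 and 116977 in WT nontumor. H2-Eb1 had 64563 and 55671 in WT tumor, against 113576 and 119405 in WT nontumor. Both WT tumor libraries were below both WT nontumor libraries for each of these chains, and below the BEBi3-/- libraries as well. The limma log2 differences were -0.90 ± 0.112 for H2-Aa (SE, adjusted p = 8.35e-05), -1.07 ± 0.107 for H2-Ab1 (adjusted p = 2.26e-05) and -0.96 ± 0.104 for H2-Eb1 (adjusted p = 3.65e-05). With the length and GC trend removed these differences were 0.085, 0.0013 and -0.29, of which only that of H2-Eb1 passed (adjusted p = 0.0216), and under quantile normalization all 3 turned to higher in WT tumor. In bulk samples fewer cells of a type and less RNA per cell cannot be told apart.

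Cd74, the invariant chain that the α and β chains assemble on, had 245708 and 219973 normalized counts in WT tumor, against 389233 and 394011 in WT nontumor. Its log2 difference was -0.75 ± 0.126 (limma adjusted p = 0.000509), the smallest fall among these 4 chains, and it was 0.18 with the length and GC trend removed. Cd74 stood in a nearly constant proportion to H2-Aa, with 2.20 and 2.25 counts of Cd74 for each of H2-Aa in WT tumor and 1.99 and 2.03 in WT nontumor. Shares of all reads scale each library by its own total, which is another scale than that of the normalized counts. As such a share H2-Aa held 0.514 and 0.457% in WT tumor, against 0.672 and 0.651% in WT nontumor. Cd74 held 1.13 and 1.03% in WT tumor, against 1.34 and 1.32% in WT nontumor. These shares differed by less than the normalized counts, whose sum over all entries was 21758733 and 21374390 in WT tumor and 29138293 and 29853692 in WT nontumor.

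The peptide-exchange molecule DM pairs the H2-DMa chain with an H2-DMb chain. H2-DMa had 8857 and 7820 normalized counts in WT tumor, against 17558 and 19740 in WT nontumor. Its log2 difference of -1.16 ± 0.0894 (limma adjusted p = 5.54e-06) was the furthest below 0 of the 10 members. It was -0.68 with the length and GC trend removed (adjusted p = 7.69e-05), and it was lower and past the threshold under all 25 alternatives tried. H2-DMb2 had 12022 and 10795 in WT tumor, against 15486 and 15917 in WT nontumor, a log2 difference of -0.46 ± 0.0751 (limma adjusted p = 0.000418). That fall turned to 0.36 with the length and GC trend removed, and as a share of all reads H2-DMb2 overlapped between the groups, at 0.0553 and 0.0505% in WT tumor and 0.0531 and 0.0533% in WT nontumor. H2-DMb1 had 6048 and 6015 in WT tumor, against 6477 and 6187 in WT nontumor, a log2 difference of -0.070 ± 0.0720 that did not pass (limma adjusted p = 0.391). The chains of DM therefore differed unequally, with 0.490 and 0.465 counts of H2-DMa for each count of the summed H2-DMb genes in WT tumor and 0.799 and 0.893 in WT nontumor.

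DO, the inhibitor of DM, is made of the H2-Oa and H2-Ob chains, and on the deposited scale these moved in opposite directions. H2-Oa had 6055 and 5065 normalized counts in WT tumor, against 10570 and 11973 in WT nontumor. H2-Ob had 31802 and 32009 in WT tumor, against 25800 and 24011 in WT nontumor. Neither gene's groups overlapped, with H2-Oa low and H2-Ob high in WT tumor. The log2 difference was -1.02 ± 0.0983 for H2-Oa (limma adjusted p = 1.77e-05) and 0.36 ± 0.0752 for H2-Ob (adjusted p = 0.00194). With the length and GC trend removed H2-Ob stayed higher at 0.31 (adjusted p = 0.00236), whereas H2-Oa was at 0.082 (adjusted p = 0.311). H2-Ob had 5.25 and 6.32 counts for each count of H2-Oa in WT tumor, against 2.44 and 2.01 in WT nontumor. The H2-Ob transcript is 2670 bases long at 46.0% GC and that of H2-Oa is 1088 bases at 56.2% GC. The ratio therefore does not give the relative amounts of the chains, and its differences between libraries include the length and GC trend. With that trend removed the chains differed less, at 0.31 for H2-Ob and 0.082 for H2-Oa.

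**Figure D2:**
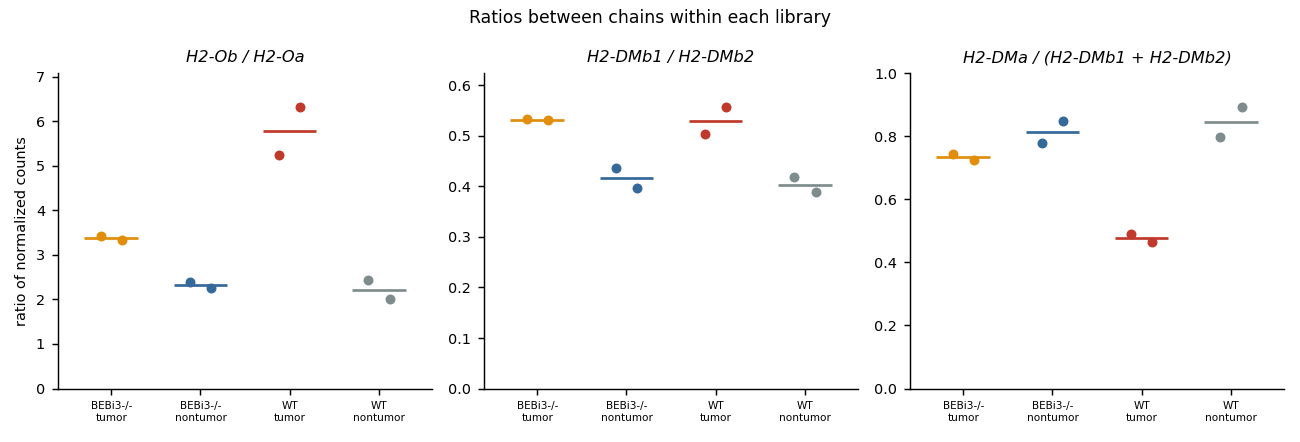
Ratios of normalized counts (vertical axes from 0) between chains of DO and DM in each library; points are libraries and bars are means of the 2 libraries of a group. H2-Ob to H2-Oa is highest in WT tumor, at 5.25 and 6.32, with BEBi3-/- tumor next at 3.43 and 3.34, and H2-DMa to the summed H2-DMb genes is lowest in WT tumor. The ratios are of deposited values, from which the length and GC trend was not removed.

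On the deposited scale Ciita was higher in WT tumor where 7 other members were lower, whereas with the length and GC trend removed 2 others, H2-DMa and H2-Eb1, had the opposite sign. It had 8452 and 9270 normalized counts in WT tumor, against 3394 and 2804 in WT nontumor, a 2.86-fold ratio of means. The WT tumor libraries were the highest of the 8 and the WT nontumor libraries the lowest. The log2 difference was 1.52 ± 0.0991 (limma adjusted p = 2.56e-06), above that of 87.9% of all tested genes. It was 1.03 with the length and GC trend removed (adjusted p = 3.86e-06) and was higher and past the threshold under all 25 alternatives. Ciita took 1.53 and 1.88% of the reads of the 10 members in WT tumor, against 0.384 and 0.310% in WT nontumor. At 6007 bases its transcript is the longest of the members, and the table has 1 value a gene, so its alternative promoters were not analysed here.

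With the length and GC trend removed, 4 members (Ciita, H2-DMb1, H2-DMb2 and H2-Ob) were higher in WT tumor, where 38.8% of genes were, and 2 (H2-DMa and H2-Eb1) were lower, where 34.6% were. The median over the members was then 0.13.

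Within BEBi3-/- mice the tumor comparison gave member differences between -0.24 and 0.50. Ciita, H2-Ob and H2-DMb1 were higher in BEBi3-/- tumor, and the other 7 members did not pass. Of all tested genes 32.6% were called, 14.1% higher and 18.5% lower. The median log2 difference of the members was -0.097, against -0.0077 over all genes. Groups did not overlap for any of the 10 members, nor for 75.6% of all genes. With the length and GC trend removed 3 members were higher and 0 lower, where 16.7% and 15.3% of genes were. The means of this comparison use no WT tumor library, and sex and title prefix are shared by its 4 libraries. The spread behind its SE and limma p-values was estimated over all 8 libraries.

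Ciita had 5211 and 5178 normalized counts in BEBi3-/- tumor, against 3825 and 3545 in BEBi3-/- nontumor. The log2 difference was 0.50 ± 0.0991 (limma adjusted p = 0.00946), and 0.41 with the length and GC trend removed (adjusted p = 0.00404). H2-Ob had 29535 and 29044 in BEBi3-/- tumor, against 24197 and 23534 in BEBi3-/- nontumor, a log2 difference of 0.30 ± 0.0752 (limma adjusted p = 0.0214), and 0.29 with the trend removed. H2-DMb1 had 7147 and 7236 in BEBi3-/- tumor, against 6322 and 5724 in BEBi3-/- nontumor, a log2 difference of 0.26 ± 0.0720 (limma adjusted p = 0.0287), and 0.47 with the trend removed. Both tumor libraries were above both nontumor libraries for each of these genes. None of the 3 calls held without either BEBi3-/- tumor library, without BEBi3-/- nontumor replicate 2, or with the BEBi3-/- tumor pair counted as 1, and the limma adjusted p for Ciita was then 0.0663 to 0.0803.

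The chains that were lower in WT tumor did not pass in BEBi3-/- mice, and quantile normalization called H2-Aa, H2-Ab1 and H2-Eb1 higher there. H2-Aa had 160353 and 159090 normalized counts in BEBi3-/- tumor, against 166536 and 178086 in BEBi3-/- nontumor, a log2 difference of -0.11 ± 0.112 (limma adjusted p = 0.471). H2-Ab1 had 92586 and 93037 in BEBi3-/- tumor, against 102478 and 101883 in BEBi3-/- nontumor, a log2 difference of -0.14 ± 0.107 (adjusted p = 0.334). Those of H2-Eb1, Cd74 and H2-DMb2 were -0.10 ± 0.104, -0.089 ± 0.126 and -0.094 ± 0.0751. Cd74 had 343322 and 346537 in BEBi3-/- tumor, against 360649 and 373231 in BEBi3-/- nontumor. On the deposited scale the tumor libraries were the lower ones each time, without passing the test. With the length and GC trend removed the differences of H2-Aa, H2-Ab1, H2-Eb1, Cd74 and H2-DMb2 were 0.13, 0.10, 0.074, 0.12 and 0.11. None of these passed. As a share of all reads the tumor libraries were the higher ones for H2-Aa, H2-Eb1, Cd74, H2-DMb2 and H2-DMa. By that share they were the lower ones for H2-Oa, and the groups overlapped for H2-Ab1. H2-DMa had 15258 and 15139 in BEBi3-/- tumor, against 16202 and 17080 in BEBi3-/- nontumor, a log2 difference of -0.13 ± 0.0894 (limma adjusted p = 0.277). Over the alternatives that difference ranged from -0.17 to 0.085 and never passed. H2-Oa had 8601 and 8709 in BEBi3-/- tumor, against 10099 and 10408 in BEBi3-/- nontumor, a log2 difference of -0.24 ± 0.0983 (adjusted p = 0.0838), a fall that passed with the compared libraries alone (adjusted p = 0.0219). H2-Ob had 3.43 and 3.34 counts for each of H2-Oa in BEBi3-/- tumor, against 2.40 and 2.26 in BEBi3-/- nontumor.

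**Figure D3:**
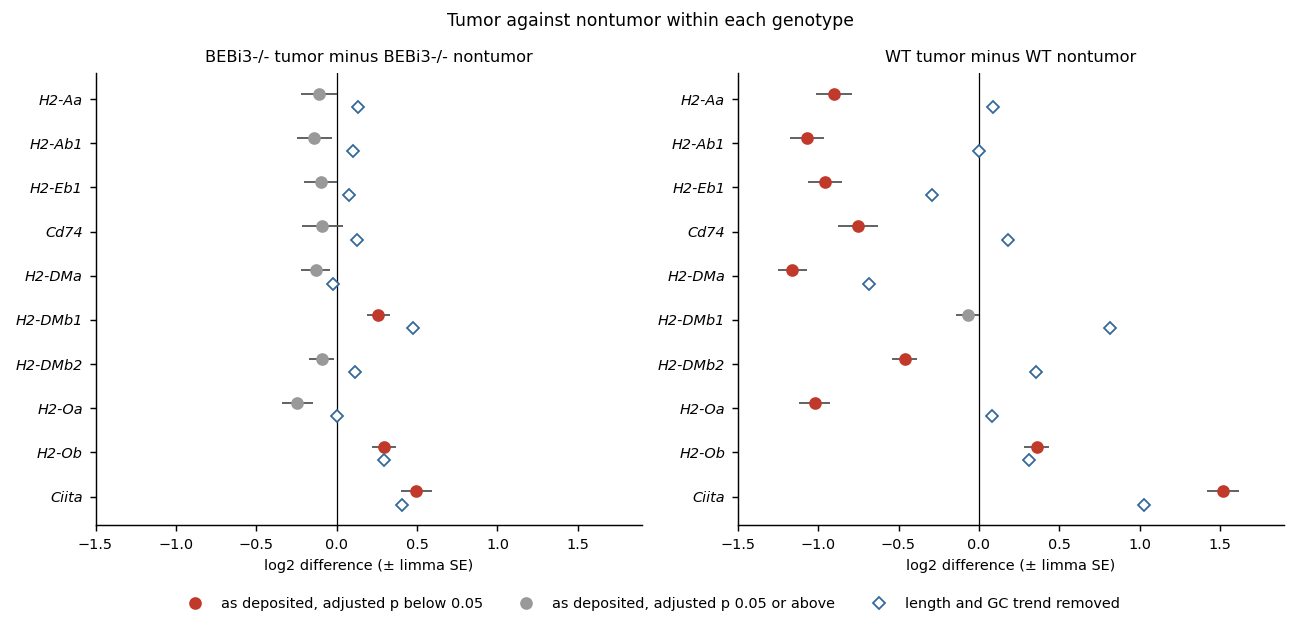
Log2 differences of the 10 members (horizontal axis), tumor minus nontumor, in BEBi3-/- mice (left) and WT mice (right). Filled circles are limma estimates ± SE on the deposited values, red where the adjusted p is below 0.05, and open diamonds are the values with each library's length and GC trend removed. Ciita is furthest to the right in each panel, at 0.50 and 1.52, and the falls of H2-Aa, H2-Ab1, Cd74 and H2-Oa in WT mice lie near 0 once the trend is removed.

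Whether the tumor difference depended on genotype was tested as the difference between the BEBi3-/- and the WT tumor differences. On the deposited scale it was positive for 8 members, negative for Ciita and not past the threshold for H2-Ob, and quantile normalization turned H2-Aa, H2-Ab1 and H2-Eb1 to negative values. Of all tested genes 52.9% were called, 27.5% positive and 25.4% negative. For H2-DMa it was 1.03 ± 0.126 (limma adjusted p = 0.000457), from -0.13 in BEBi3-/- mice and -1.16 in WT mice. For Ciita it was -1.02 ± 0.140 (limma adjusted p = 0.000699), from 0.50 in BEBi3-/- mice and 1.52 in WT mice. H2-DMa and Ciita kept direction and call under all 22 alternatives, with 0.66 and -0.62 for H2-DMa and Ciita in the fit without the length and GC trend (adjusted p = 0.00355 and 0.00233). After that removal 1 member was positive and 2 were negative, where 18.4% and 18.5% of genes were, and Cd74, H2-DMb1, H2-DMb2 and H2-Oa had turned to negative values. For H2-Ob the difference was -0.063 ± 0.106 (limma adjusted p = 0.637). With the BEBi3-/- tumor pair counted as 1 the calls of Cd74, H2-DMb1 and H2-DMb2 ended (adjusted p = 0.0780, 0.0951 and 0.0789 by limma). The WT tumor libraries enter every one of these values, so sex and title prefix are carried by them.

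The comparison of the genotypes in tumor-bearing mice shares the BEBi3-/- tumor and WT tumor libraries with the comparisons above. In BEBi3-/- tumor 8 members were higher and Ciita was lower than in WT tumor, and H2-Ob did not pass. Of the 8, H2-DMa and H2-Eb1 were still called higher with the trend removed, and H2-Aa, H2-Ab1 and H2-Eb1 turned negative under quantile normalization. Of all tested genes 60.5% were called, 31.9% higher and 28.6% lower, and the median log2 difference was 0.59 over the members and -0.00051 over all genes. Ciita averaged 5195 ± 23.6 normalized counts in BEBi3-/- tumor and 8861 ± 578 in WT tumor (SD, n = 2 each), a log2 difference of -0.77 ± 0.0991 (limma adjusted p = 0.000265) that was -0.48 with the length and GC trend removed. H2-DMa averaged 15198 ± 84.5 in BEBi3-/- tumor and 8339 ± 733 in WT tumor, a log2 difference of 0.87 ± 0.0894 (limma adjusted p = 9.71e-05) that was 0.50 with the trend removed. Groups overlapped for neither gene, nor for any other member, and 88.9% of all genes did not overlap.

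The other chains were less steady between these groups. The log2 differences of H2-Aa, H2-Ab1, H2-Eb1, Cd74 and H2-Oa were 0.61, 0.81, 0.75, 0.57 and 0.64 on the deposited values and -0.034, 0.028, 0.31, -0.10 and -0.15 with the length and GC trend removed. Those of H2-DMb1 and H2-DMb2 were 0.25 each and turned to -0.35 and -0.30. With the BEBi3-/- tumor pair counted as 1 the calls of Cd74, H2-DMb1 and H2-DMb2 ended (adjusted p = 0.0528, 0.0885 and 0.111 by limma). With the trend removed 2 members were higher and 3 were lower, where 21.1% and 24.6% of genes were. H2-Ob averaged 29290 ± 347 in BEBi3-/- tumor and 31905 ± 146 in WT tumor, a log2 difference of -0.12 ± 0.0752 (limma adjusted p = 0.183).

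In mice without a tumor the genotypes were close. By limma 0 of the 10 members and 0 of all tested genes (0%) passed, with 1049 genes (8.06%) at an unadjusted p under 0.05. DESeq2 called 21 genes, none of them a member, and edgeR called 0. Ciita had 3825 and 3545 normalized counts in BEBi3-/- nontumor, against 3394 and 2804 in WT nontumor, a log2 difference of 0.26 ± 0.0991 (unadjusted p = 0.0307, limma adjusted p = 0.604). H2-Aa had 166536 and 178086 in BEBi3-/- nontumor, against 195699 and 194211 in WT nontumor, a log2 difference of -0.18 ± 0.112 (limma adjusted p = 0.609). The log2 differences of the other 8 were -0.16 for H2-DMa, -0.13 for H2-Oa, -0.13 for H2-Ab1, -0.12 for H2-DMb2, -0.11 for H2-Eb1, -0.094 for Cd74, -0.074 for H2-DMb1 and -0.061 for H2-Ob. Groups did not overlap for 8 members, where 31.9% of all genes did not, with Ciita high and the others low in BEBi3-/- nontumor. A value past no threshold does not show that the genotypes are alike.

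**Figure D4:**
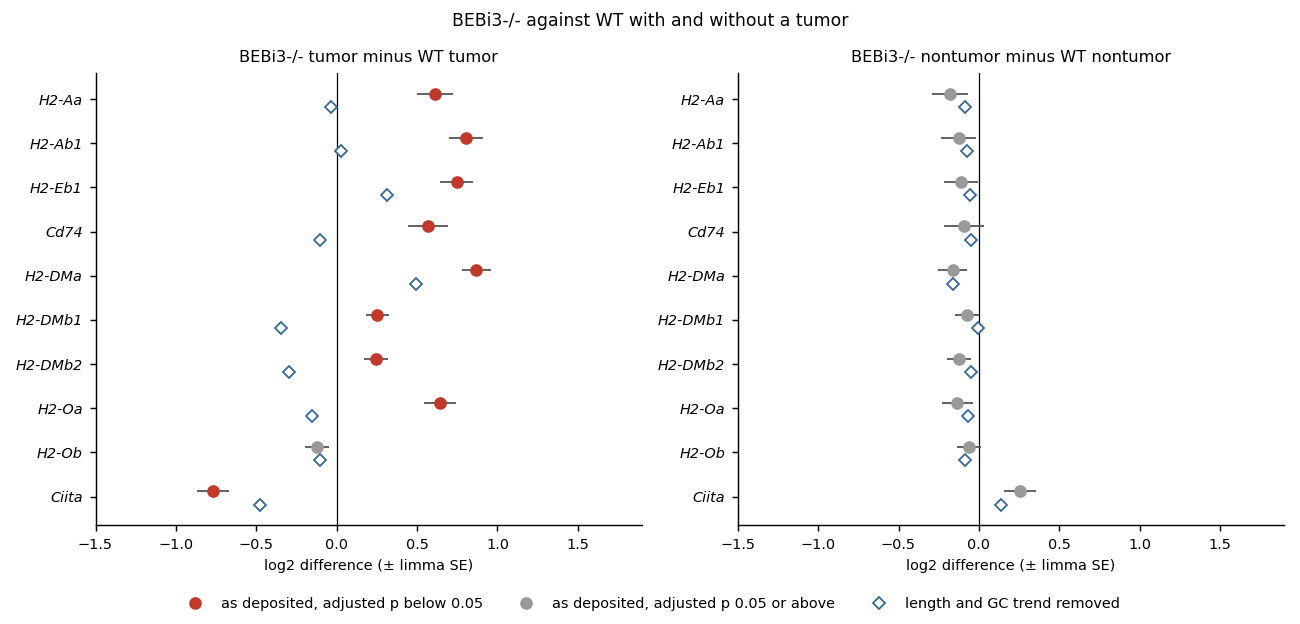
Log2 differences of the 10 members (horizontal axis), BEBi3-/- minus WT, in tumor-bearing mice (left) and mice without a tumor (right). Filled circles are limma estimates ± SE on the deposited values, red where the adjusted p is below 0.05, and open diamonds are the values with the length and GC trend removed. Without a tumor every value lies between -0.18 and 0.26, and with a tumor only Ciita, H2-DMa and H2-Eb1 keep a value beyond 0.30 in the same direction after removal of the trend.

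Of 12 listed factors that bind or assist at class II promoters, 8 were higher and 2 lower in WT tumor, where 39.6% and 40.1% of all genes were, with a median of 0.81. On values free of the length and GC trend 6 were higher and 0 lower, where 38.8% and 34.6% of genes were, with a median of 0.36. Ep300 and Crebbp encode the histone acetyltransferases p300 and CBP, which CIITA recruits. Ep300 in WT tumor averaged 5364 ± 583 normalized counts, against 1240 ± 116 in WT nontumor (SD, n = 2 each). Crebbp averaged 1787 ± 257 in WT tumor, against 273 ± 72.1 in WT nontumor. Their limma log2 differences were 2.11 (adjusted p = 1.18e-06) and 2.72 (adjusted p = 2.29e-06), and 1.11 and 1.64 with the length and GC trend removed. Nfya, a subunit of the Y box factor NF-Y, was higher as well (adjusted p = 7.69e-06), and stood at 0.93 with the trend removed. Creb1, which binds the X2 box, had a log2 difference of 1.02 that went to -0.10 with the trend removed. In BEBi3-/- mice 6 of the 12 were higher in tumor and 0 lower, where 14.1% and 18.5% of all genes were. One of the 6 was Nlrc5, the related coactivator of MHC class I genes, with a log2 difference of 1.05 (limma adjusted p = 0.0116). Another was Rfx5, the DNA-binding subunit of RFX, with 0.42 (limma adjusted p = 0.0202). With the BEBi3-/- tumor pair counted as 1, 0 of the 12 were called. Between the genotypes in tumor-bearing mice 1 was higher and 8 were lower in BEBi3-/- tumor, where 31.9% and 28.6% of all genes were. With the length and GC trend removed 0 were higher and 4 lower, where 21.1% and 24.6% of genes were. The median went from -0.58 to -0.20.

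Regulators of Ciita were divided. Of 10 listed, 4 were higher and 3 lower in WT tumor, where 39.6% and 40.1% of all genes were, with a median of 0.056. These counts were near the shares of all genes. Removing the length and GC trend left 3 higher and 4 lower, where 38.8% and 34.6% of genes were, with a median of -0.23. Irf4, which acts in B cells and plasma cells, in WT tumor averaged 6962 ± 339 normalized counts, against 3431 ± 1035 in WT nontumor (limma log2 difference 1.05, adjusted p = 0.000536, and 0.62 with the trend removed). Irf1, which carries interferon signals to the Ciita gene, had a log2 difference of 0.73 (adjusted p = 0.000577, and 1.09 with the trend removed), and Sfpi1, the older symbol of the gene of PU.1, one of -1.05 (adjusted p = 1.75e-05, and -0.49 with the trend removed). In BEBi3-/- mice 3 were higher in tumor and 0 lower, where 14.1% and 18.5% of all genes were. They were Irf4 at 0.84, Irf1 at 0.49 and Prdm1, which encodes a repressor of Ciita in plasma cells, at 0.56. With the tumor pair counted as 1, 0 were called. In BEBi3-/- tumor the 6 plasma cell markers, one of which is Prdm1, summed to 0.191 and 0.190% of reads, against 0.0788 and 0.0693% in BEBi3-/- nontumor, and all 6 were higher, or 1 with the pair counted as 1. In WT mice these markers summed to 0.0314 and 0.0271% in WT tumor, against 0.110 and 0.0939% in WT nontumor. Their part in the values of Ciita was not tested.

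Genes for the processing of antigen and the invariant chain were mainly lower in tumor-bearing mice of each genotype. In WT tumor 10 of the 14 tested were lower and 0 higher, where 40.1% and 39.6% of all genes were, with a median of -0.74. With the length and GC trend removed 10 were lower, where 34.6% of genes were, with a median of -0.36. Ctsb, a lysosomal cathepsin, in WT tumor averaged 6827 ± 595 normalized counts, against 58320 ± 3266 in WT nontumor, a limma log2 difference of -3.10. Ctsd, Ctsl and Lgmn, other lysosomal proteases, had log2 differences of -3.23, -2.56 and -1.59. With the trend removed Ctsb, Ctsd, Ctsl and Lgmn were at -3.48, -2.82, -3.31 and -1.16. In BEBi3-/- tumor 9 were lower, where 18.5% of all genes were, and with the trend removed 6 were, where 15.3% were. Cd83, whose product stabilizes surface class II, was higher there. It is named because it was the only one higher, after its value was seen. Ctsb, Ctsd and Ctsl had log2 differences of -0.93, -1.02 and -0.81 in BEBi3-/- mice, and they were the 3 genes still called with the tumor pair counted as 1. All 12 macrophage markers were lower in WT tumor (median -3.09) and 11 of 12 in BEBi3-/- tumor (median -0.97), or 9 with the pair counted as 1. Their part in the protease values was not tested. Of the 10 dendritic cell markers 9 were lower in WT tumor and 4 in BEBi3-/- tumor, or 0 with the pair counted as 1.

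Among the 12 other genes of the class II region, in WT tumor 3 were higher and 6 lower, with a median of -0.20. Of all genes 39.6% were higher and 40.1% lower. With the length and GC trend removed 8 of the 12 were higher and 2 lower, where 38.8% and 34.6% of genes were, with a median of 0.26. Psmb8 and Psmb9, immunoproteasome subunits that lie among the class II genes, had limma log2 differences of -1.22 and -1.28, which were -0.46 and -0.34 with the trend removed. Brd2, a bromodomain protein encoded beside H2-DMa, had 1.11, and 0.96 with the trend removed. In BEBi3-/- tumor 3 of the 12 were higher and 0 lower, where 14.1% and 18.5% of all genes were. They were Btnl2 at 1.08, Brd2 at 0.53 and Tap1, a peptide transporter for class I, at 0.25. These calls ended with the tumor pair counted as 1. Genes outside the family with the X and Y box letters in a promoter were no uniform group. Of 58 tested, 31 were higher and 18 lower in WT tumor, where 39.6% and 40.1% of all genes were, with a median of 0.47. With the trend removed 28 were higher and 13 lower (median 0.24), where 38.8% and 34.6% of genes were.

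Many genes followed the same order of groups as the members. Among 10282 genes with a mean of at least 50, those most like Ciita over the 8 libraries were Kdm3b, Kansl1, Zfp592, Suv420h1 and Dennd5b, with Pearson r of 0.9996 to 0.9988, and 2030 genes reached 0.95. Those most like the mean of H2-Aa, H2-Ab1, H2-Eb1 and Cd74 were Dhrs7, Endog, Ostc, Rpl34 and Srp14, with r of 0.9998 to 0.9977, and 2144 genes reached 0.95. The 8 libraries fall into groups and share the length trend, so these values describe likeness of pattern and carry no p.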

How the data were processed

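The deposited table gives 1 value per gene symbol and library. These values are normalized counts (unit: signal), that is, reads divided by a size factor per library, as deposited by the authors; per the submitters' processing notes Salmon, DESeq2 and mm10 were used, with versions not given in the sources used here. RNA was extracted with an RNeasy Plus Mini kit and libraries were stranded, per the labels' protocols. In each library 100% of values were whole multiples of 1 step (tolerance 0.01), so reads were recovered. Of 23302 entries 5065 were at 0 in every library and 27 carried date names and were not identified, which leaves March1 and March8 out of the processing list.

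Genes with a mean of at least 10 (13011) were fitted with limma 3.58.1 in R 4.3.3 on log2(value + 1), with 4 group means and a variance trend (4 residual and 4.64 prior degrees of freedom). Log2 differences are on that scale. Lengths and GC content came from the longest coding transcript in GENCODE (GRCm38) and covered 98.9% of tested genes; the trend was a spline with 5 degrees of freedom on each. The fit was checked on simulated data. Alternatives were other pseudocounts, filters, scalings and variance models, each library left out, BEBi3-/- tumor averaged as 1, a replicate block, edgeR 4.0.16 and DESeq2 1.42.0 on recovered reads, and removal of the trend. edgeR called 10435 genes in the WT tumor comparison and 4489 in the BEBi3-/- one.

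All 10 members may be named in each comparison. Of every other list at most the 4 genes with the smallest p in a comparison are named, apart from Cd83 in BEBi3-/- tumor. For likeness the 5 closest genes are named, without gene models, pseudogenes and receptor segments. The members, lists and tests were chosen with earlier results of these data known. H2-Ab1, Cd74 and Ciita had no promoter in the RefSeq table.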

Additional observations from a re-analysis of the deposited data

Results flagged for a closer look

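For 9 of the 10 members the tumor difference in BEBi3-/- mice minus that in WT mice passed limma's test of the interaction. On the log2 scale it was 0.79 for H2-Aa, 0.93 for H2-Ab1, 0.86 for H2-Eb1, 0.66 for Cd74, 1.03 for H2-DMa, 0.33 for H2-DMb1, 0.37 for H2-DMb2, 0.78 for H2-Oa and -1.02 for Ciita. With the length and GC trend removed H2-DMa and Ciita kept their calls, H2-DMb1 reversed to -0.34, and those of H2-Aa, H2-Ab1, H2-Eb1, Cd74, H2-DMb2 and H2-Oa ended. With the BEBi3-/- tumor pair counted as 1 those of Cd74, H2-DMb1 and H2-DMb2 ended. Of all tested genes 52.9% passed the same test, and the WT tumor libraries, which differ from the others in sex and title prefix, enter each value.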

How the results depend on the processing

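Of 1160 member values under alternatives, 1076 counted as the same, 53 were no longer past the threshold, 4 were newly past it and 27 reversed. A change of sign counted as reversed only where the main or the alternative value passed the threshold. Some of the 1076 therefore changed sign without a call, such as Cd74 in the BEBi3-/- tumor comparison, from -0.089 to as high as 0.12. Under quantile normalization, which pins the top ranks, H2-Aa, H2-Ab1 and H2-Eb1 reversed to 0.54, 0.40 and 0.47 in the WT tumor comparison, 0.34, 0.27 and 0.28 in the BEBi3-/- tumor comparison, -0.10, -0.062 and -0.091 between genotypes with a tumor and -0.20, -0.13 and -0.19 in the interaction. With the length and GC trend removed, the WT tumor values of H2-Aa, H2-Ab1, Cd74, H2-DMb1, H2-DMb2 and H2-Oa became 0.085, 0.0013, 0.18, 0.82, 0.36 and 0.082. Those between genotypes with a tumor became -0.034 for H2-Aa, -0.10 for Cd74, -0.35 for H2-DMb1, -0.30 for H2-DMb2 and -0.15 for H2-Oa, and the interactions of Cd74, H2-DMb1, H2-DMb2 and H2-Oa became -0.054, -0.34, -0.25 and -0.082. The cause was not tested.

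Members higher in WT tumor (2) numbered 5 with quantile normalization, 4 with the trend removed and 1 with the replicate block, and those lower (7) numbered 3 and 2 with the first 2 of these. In the BEBi3-/- tumor comparison 4242 genes were called, 2375 without the variance trend, 733 with the tumor pair averaged and 756 to 5313 with 1 library left out; members higher (3) numbered 6 with quantile normalization, 0 with the pair averaged and 0 to 3 with 1 library left out, and 1 was lower with the compared libraries alone. Between genotypes without a tumor, leaving out 1 library gave 0 to 5 genes and DESeq2 gave 21. Between genotypes with a tumor, members higher (8) numbered 3 with quantile normalization, 5 averaged, 2 with the trend removed and 5 to 8 with 1 library left out; those lower (1) numbered 2 with quantile normalization, 2 with B cell gene scaling and 3 with the trend removed. In the interaction, members positive (8) numbered 3, 5 and 1 under quantile, averaged and trend-removed values and 5 to 8 with 1 library left out, and those negative (1) numbered 2 with quantile normalization and 2 with the trend removed.

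Title numbers are shared by the WT groups alone. Same-numbered libraries deviated with r = -0.256. With 2 libraries a group the crossed pairs must then give 0.256, so this single value cannot settle whether the numbers mark a pairing. With the replicate block 9305 genes were called, against 10378 without it, and H2-Ob had an adjusted p of 0.0750 by limma; with numbers crossed 10678 were called, with 2 members higher and 7 lower. Without a left-out library the interaction calls of Cd74, H2-DMb1 and H2-DMb2 ended for 4, 4 and 3 of the 8 libraries. With 2 libraries a group, calls on small differences such as those of the BEBi3-/- tumor comparison can end when 1 library is left out. In that comparison Ciita was at 0.49 and 0.50 without BEBi3-/- tumor replicates 1 and 2. It was at 0.44 without BEBi3-/- nontumor replicate 2, against 0.50 with all libraries. H2-DMb1 was at 0.27, 0.25 and 0.19 in the same order, against 0.26.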
